A study of Nematostella vectensis with 84 samples.

Results

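The comparison described here set tissue from the oral disc and tentacles of the adult starlet sea anemone (Nematostella vectensis) at the last sampled point after calcium-free KSW against the same tissue at the last sampled point after cytochalasin D. It took all 12 libraries that the titles label T4 in these treatments, 6 per treatment with the letters A to F, out of 84 libraries in 14 groups. Per the labels, the animals were exposed to 1 of 3 forms of trauma and then left to recover, with samples at hourly points. Both treatments have the time points T0 to T4, and the sources used here do not say whether T0 precedes the recovery or how long the exposures lasted. The other 48 libraries of these treatments, at T0 to T3, and the 24 streptomycin libraries, at T0 to T3, served only to set the T4 values in context. The streptomycin time points stand for lengths of exposure, so they are not recovery times, and there is no streptomycin T4. The labels name no untreated control group. The series' design text counts 3 replicates in each of 2 conditions per time point, so letters A to C and D to F may stand for conditions that the labels do not name, and n = 6 below takes all letters as 1 group. KSW is a medium, and the labels leave the abbreviation unexplained. The labels do not say that the libraries of a group came from separate animals, so the p-values measure the spread between libraries, which may be technical.

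Tentacles of sea anemones carry hair bundles, groups of actin-filled projections on the surface epithelium that sense vibration and movement of prey. Removal of external calcium opens calcium-dependent links between these projections and between cells, cadherins among them. Cytochalasin D acts inside the cell, where it caps actin filaments and stops them from growing. The oral disc and tentacles also hold stinging cells, gland cells, muscle and neurons. The tag-based RNA method used here counts short reads from mRNA, so a level is a share of reads and is not per transcript length. Levels below are CPM, the reads of a gene brought to a common library size by trimmed-mean scaling of all 84 libraries. The gene models are known only by their identifiers, none of the 23510 of which matched a name in the reference table, so no function can be given for any gene. For the same reason the tissue label could not be checked against marker genes. In whole tissue, fewer cells of a type and less RNA per cell cannot be told apart.

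The libraries were shallow. The calcium-free T4 libraries held 217221 to 319290 counts (median 297097) and 11739 to 13833 detected genes, and the cytochalasin D T4 libraries held 272537 to 409888 counts (median 330714) and 12810 to 14928 genes. A single read was worth 2.44 to 4.6 CPM before scaling. No T4 library had counts identical to those of another. The pair with the highest correlation of log2 counts (0.902), cytochalasin D F and C, differed by 1.95 times the sampling variance (chi-square per degree of freedom). This ratio was computed for that pair alone. Each title ends in a number after the letter S, and the numbers of all cytochalasin D libraries, at every time point, lie above those of all other libraries, while the calcium-free and streptomycin numbers are mixed. What these numbers stand for is not stated, and a difference of cytochalasin D from the other treatments and a difference between the ranges of numbers cannot be told apart.

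At T4, 123 of the 2818 genes tested, or 4.36%, differed between the treatments (edgeR quasi-likelihood test with letter pair as a block, Benjamini-Hochberg adjusted p under 0.05). Of these, 70 were higher after calcium-free KSW (2.48% of the genes tested) and 53 were higher after cytochalasin D (1.88%). The 6 letters were treated as 3 pairs by letter (A/D, B/E, C/F). In 94 of the 123 genes the difference had the same sign in 6 of 6 matched letters, and in the other 29 in 5 of 6. Among all 2818 genes the same held for 318 and 714. The groups did not overlap at all in 32 of the called genes, against 55 of all genes tested (1.95%). Before adjustment, 551 genes had a p under 0.05, and DESeq2 called 116. Without the letter-pair block edgeR called 79 genes, 42 higher after calcium-free KSW and 37 higher after cytochalasin D. A fit of all 84 libraries with 1 shared estimate of the spread called 37, of which 30 were among the 123. Which direction had more genes was not stable: cytochalasin D had more in the fit of all 84 libraries (20 against 17), with letter pairs summed (83 against 67), with no low-count filter (108 against 51), with letters D to F alone (24 against 12) and without calcium-free F (69 against 64).

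The differences were small in size. The median difference of the called genes was 0.74 on the log2 scale, a 1.67-fold difference, against a median of 0.22 for all genes tested. The genes higher after calcium-free KSW lay between 0.38 and 1.56 (median 0.67), and those higher after cytochalasin D reached 2.74 (median 0.79). Over 2-fold differences were found for 9 of the 70 and 16 of the 53 genes, and 29 of the 123 differed by less than 1.5-fold. The genes higher after calcium-free KSW had a median level of 221 CPM and the genes higher after cytochalasin D of 157.1 CPM, against 81.3 CPM for all genes tested. With the genes tested split into 4 equal classes of abundance, 10.1% of the most abundant class were called and 1.99% of the least abundant. Counting error is smaller at high counts, so this gradient is no measure of how often abundant genes differed.

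Among the 30 most abundant genes tested, 11 were called and all 11 were higher after calcium-free KSW, as the plot of differences against abundance shows. Over all genes tested, 123 of 2818 were called (4.36%). The most abundant of the 4 classes had calls in both directions: 71 of 705 genes, 43 higher after calcium-free KSW and 28 higher after cytochalasin D. In any size, 22 of the 30 most abundant genes were higher after calcium-free KSW at T4. Over all genes tested the median T4 difference was -0.019 on the log2 scale. At T0, T1, T2 and T3 the number of the 30 higher in the calcium-free libraries was 14, 24, 12 and 23. The T2 value includes calcium-free T2 F, where these genes took 17.7% of the reads, against 32.75% to 45.2% in the other 5 calcium-free libraries. At those points 0, 0, 0 and 2 of them were called higher after calcium-free KSW, and 1 was called higher after cytochalasin D, at T3. The 10 genes with most reads took 31.5% to 37.2% of the reads of a calcium-free T4 library and 26.8% to 33.1% of a cytochalasin D T4 library. These shares overlapped between the treatments through calcium-free C and cytochalasin D D. Whether this difference in composition had a part in the other calls was not tested.

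**Figure D1:**
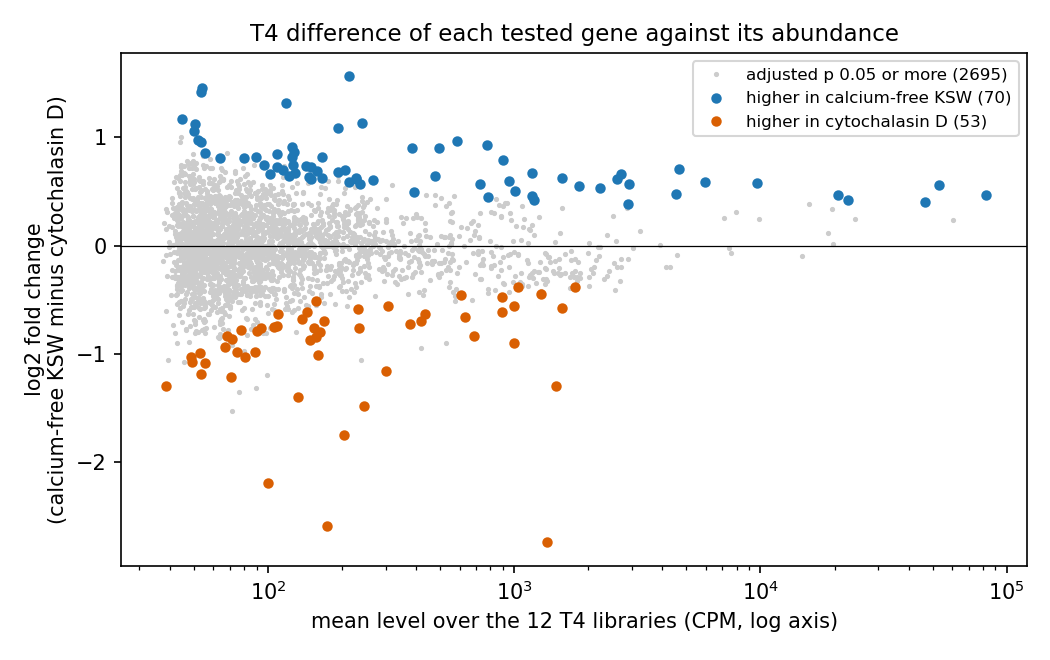
Log2 fold change at T4 (calcium-free KSW minus cytochalasin D, vertical axis) against mean level over the 12 libraries (CPM, log axis) for the 2818 genes tested. The 70 genes higher after calcium-free KSW (blue) reach the right end of the plot, while the 53 genes higher after cytochalasin D (orange) end at 1769 CPM and include the differences of over 1.56 in size.

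NVE1391 had the highest fold change among the abundant genes that were higher after calcium-free KSW in 6 of 6 letters. Its level in the calcium-free libraries A to F was 361, 368, 258, 352, 211 and 291 CPM. In the cytochalasin D libraries A to F it was 73.4, 82.6, 189.5, 80.8, 78.7 and 120.6 CPM. Every calcium-free library was above every cytochalasin D library, and the highest of the latter, C, came close to the lowest of the former, E. The log2 difference was 1.56 ± 0.21 (SE; edgeR adjusted p = 7.48e-05), a 2.95-fold higher level after calcium-free KSW.

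The treatments started level for NVE1391. At T0 the means were 119.05 ± 44.1 CPM after calcium-free KSW and 117 ± 26.1 CPM after cytochalasin D (SD, n = 6), a log2 difference of 0.07 ± 0.22 (SE; edgeR adjusted p = 0.892). From T1 to T4 the calcium-free means were 178.8 ± 57.96, 173.3 ± 99.3, 253 ± 86.1 and 307 ± 63.9 CPM (SD, n = 6). The cytochalasin D means stayed between 98.7 ± 19.7 CPM at T1 and 124 ± 35.3 at T3 (SD, n = 6) and were 104.2 ± 45.1 at T4. The gene was called at T1 (edgeR adjusted p = 0.0217) and T3 (7.54e-05) and missed the threshold at T2 (0.736). At T2 calcium-free F was at 34.0 CPM, against 109 to 294 CPM in the other calcium-free libraries. The test of the T4 difference against the T0 difference gave 1.57 ± 0.36 on the log2 scale (SE; edgeR adjusted p = 0.105), so a widening did not pass. Streptomycin libraries had means of 203 ± 45.4, 214 ± 43.6, 231 ± 108 and 262 ± 115 CPM at T0 to T3 (SD, n = 6), which is above the cytochalasin D mean at each of these points.

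NVE1389 was the second gene named on this side. Calcium-free libraries A to F held 149.96, 167.9, 192, 125, 118.7 and 194 CPM, and cytochalasin D libraries A to F held 73.4, 38.1, 71.8, 46.8, 56.6 and 94.0 CPM. The groups did not overlap, with cytochalasin D F the highest of its group. The log2 difference was 1.32 ± 0.18 (SE; edgeR adjusted p = 0.000131), or 2.49-fold. The difference had its T4 sign at each earlier point and was called at T1 and T3. It was 0.65 ± 0.21 at T0 (SE; edgeR adjusted p = 0.0875), 1.09 ± 0.18 at T1 (0.00745), 1.13 ± 0.43 at T2 (0.638) and 1.47 ± 0.20 at T3 (8.92e-05). At T2 calcium-free F was at 353 CPM, against 59.3 to 191 CPM in the other calcium-free libraries. The T4 difference was larger than the T0 difference by 0.72 ± 0.40 on the log2 scale (SE), which did not pass (edgeR adjusted p = 0.758).

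On the cytochalasin D side the gene with the largest difference was NVE17825. Calcium-free libraries A to F held 265, 64.3, 300.1, 1351, 219 and 182.5 CPM, whereas cytochalasin D libraries A to F held 1581, 5498, 1955, 1667, 409 and 2177 CPM. The groups overlapped, because calcium-free D lay above cytochalasin D E. The log2 difference was -2.74 ± 0.52 (SE; edgeR adjusted p = 0.00277), 6.67-fold higher after cytochalasin D and of that sign in 6 of 6 letters. Without calcium-free D it was -3.41, and without cytochalasin D B it was -1.87 (edgeR adjusted p = 0.000167 and 0.0013). The call ended in the fit of all 84 libraries (adjusted p = 0.146) and with letters D to F alone (0.101). NVE17825 also varied widely between libraries of 1 group at other points, for example from 45.4 to 2824 CPM in the calcium-free libraries at T1. At T0 to T3 the calcium-free D, E or F library was above its A, B or C partner in 12 of 12 cases. In cytochalasin D this held in 6 of 12 cases and with streptomycin in 7 of 12. The T4 difference in D to F departed from that in A to C by 2.74 ± 0.84 (log2, SE), which did not pass (edgeR adjusted p = 0.462). The T0 to T3 differences of NVE17825 were -1.58, -0.49, -2.0 and -1.17 on the log2 scale, none called (edgeR adjusted p = 0.108, 0.787, 0.757 and 0.257). At T2 calcium-free F was at 7035 CPM, against 81.7 to 392 CPM in the other calcium-free libraries.

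NVE17843 was the other gene named on this side. Its levels in calcium-free A to F were 42.3, 39.3, 73.3, 55.5, 26.0 and 17.1 CPM, and those in cytochalasin D A to F were 171.2, 708, 155.06, 161.6, 47.2 and 354 CPM. Cytochalasin D E fell within the calcium-free range, and cytochalasin D B was the highest of both groups, as for NVE17825. The log2 difference was -2.58 ± 0.46 (SE; edgeR adjusted p = 0.00171), a 5.99-fold higher level after cytochalasin D. It was -1.79 without cytochalasin D B (edgeR adjusted p = 0.000776), and the call ended in the fit of all 84 libraries (adjusted p = 0.0837). The gene was also called at T0 (-2.24 ± 0.45, SE; edgeR adjusted p = 0.00732) and T3 (-2.06 ± 0.37; 0.00135), while T1 (-0.70; 0.583) and T2 (-2.47; 0.669) did not pass. At T2 calcium-free F was at 589 CPM, against 13.2 to 30.6 CPM in the other calcium-free libraries.

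**Figure D2:**
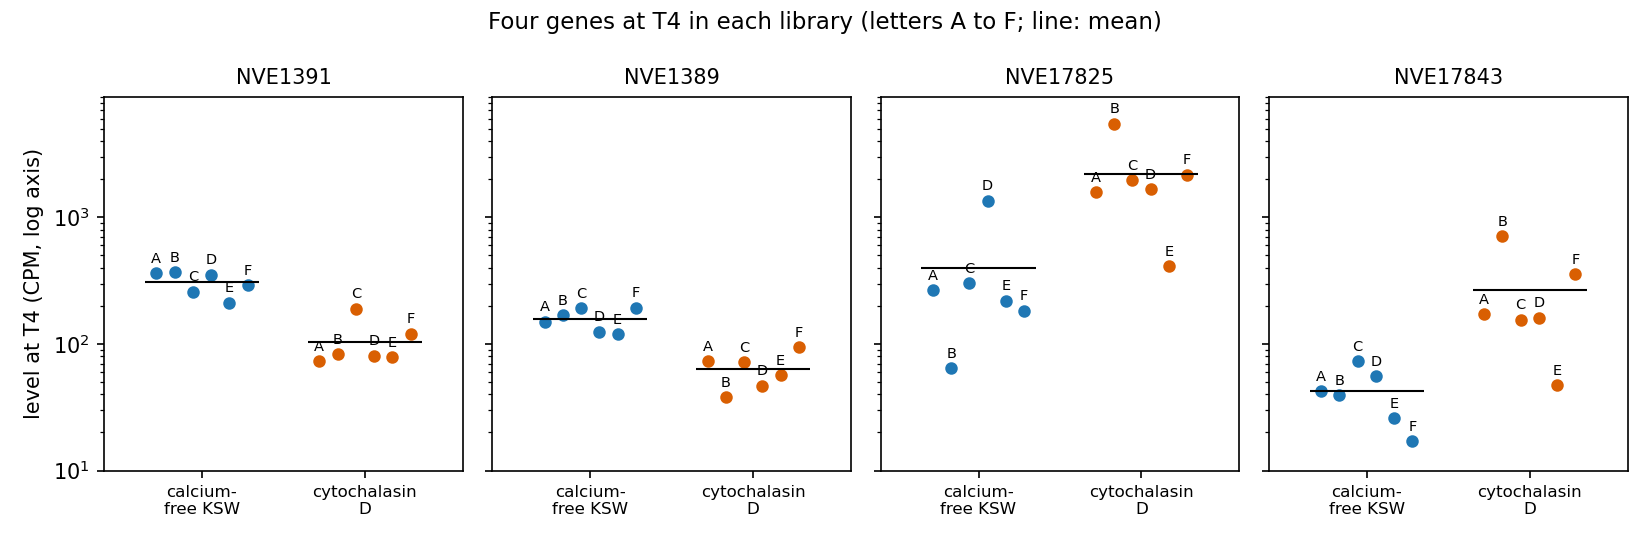
Level of the 4 genes in each of the 12 T4 libraries (CPM, log axis), with points lettered by library and lines at group means. NVE1391 and NVE1389 separate the treatments without overlap, whereas for NVE17825 and NVE17843 cytochalasin D E lies within the calcium-free range.

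The same contrast at T0 to T3 used libraries that the T4 test did not use, and it was read to see how much of the T4 difference was already there. The number of genes called was 101 of 3258 at T0 (3.1%), 0 of 3599 at T2 (0%) and 189 of 3061 at T3 (6.17%). At T1, 51 of 3975 genes were called higher after calcium-free KSW and 85 higher after cytochalasin D (3.42% in all). With each letter as a block, edgeR called 248 genes at T0 and 206 at T1. For T2, 256 genes had a p under 0.05 before adjustment in edgeR, and DESeq2 called 8. Without calcium-free T2 F, a library that stood apart from its group, edgeR called 217. Of the T4 genes that were also tested at T0, 102 had the same sign there and 17 the opposite (85.7% the same). At T1 only 7 had the opposite sign (94.2% the same), at T2 108 had the same and 13 the opposite (89.3%), and at T3 only 3 had the opposite sign (97.5% the same). Without calcium-free T2 F the share at T2 was 95.9%. Over all genes tested at T4 the shares were 60.7%, 64.6%, 59.4% and 68.1%. At T0, T1, T2 and T3, 20, 27, 0 and 53 of the T4 genes were called in the same direction, and 1 was called in the opposite direction, NVE2343 at T0.

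At T0 to T3 the medians of both sets had their T4 sign at a smaller size. The 70 genes higher after calcium-free KSW at T4 had median log2 differences of 0.26, 0.36, 0.34 and 0.44 at T0 to T3, and 0.67 at T4. The 53 genes higher after cytochalasin D had medians of -0.40, -0.49, -0.36 and -0.56 at T0 to T3, and -0.79 at T4. The T4 medians are raised in size by the choice of the genes at T4, so they are not to be read as a growth of the difference. Of the 118 T4 genes tested at all 5 points, 88 (74.6%) had the same sign at all 5, against 804 of 2559 for all genes tested (31.4%). In all, 63 of the 123 were called at 1 or more earlier points, 30 at 2 or more, 7 at T0, T1 and T3 together, and 60 at T4 alone. These counts over several points were not made for all genes tested, so they have no share to be read against. Being called at T4 alone does not show that a gene differed from its earlier state.

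**Figure D3:**
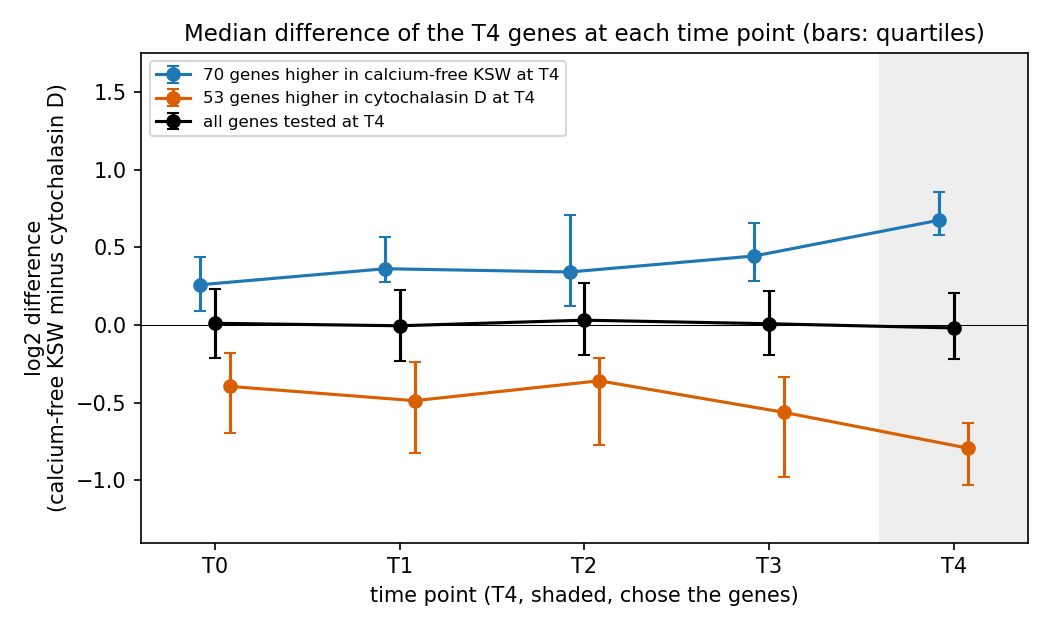
Median log2 difference (calcium-free KSW minus cytochalasin D) at T0 to T4 of the 70 genes higher after calcium-free KSW at T4 (blue), the 53 genes higher after cytochalasin D at T4 (orange) and all genes tested at T4 (black), with bars from the first to the third quartile. The blue medians lie at 0.26 to 0.44 and the orange medians at -0.36 to -0.56 at T0 to T3, before the shaded T4 that chose the genes.

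The 53 genes higher after cytochalasin D took 2.03% to 2.59% of the reads of each cytochalasin D library at T4 and 1.08% to 1.37% of each calcium-free library. In the cytochalasin D libraries the medians at T0 to T3 were 1.92%, 2.07%, 2.22% and 2.00%, and in the calcium-free libraries they were 1.40%, 1.39%, 1.27% and 1.22%. The streptomycin libraries, at medians of 1.19%, 1.21%, 1.23% and 1.27%, lay with the calcium-free ones. Calcium-free T2 F was at 3.64%, above every cytochalasin D library of that point. By gene, cytochalasin D had the highest mean of the 3 treatments for 35, 41, 45 and 40 of the 53 genes at T0 to T3. Calcium-free KSW had the lowest for 32, 35, 28 and 40 of them. As shares of the 53 genes these were 66% to 84.9% and 52.8% to 75.5%. Over all genes tested at T4 the shares were 30.5% to 33.1% and 36.7% to 39.5%. These counts follow in part from the choice of the genes for a higher level in cytochalasin D than in calcium-free KSW. The title numbers of the streptomycin libraries overlap in part with those of the calcium-free libraries and not with those of the cytochalasin D libraries. Streptomycin libraries with numbers above every calcium-free one include all at T3 and all but A at T2. The part of the title numbers in this pattern was not tested.

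The 70 genes higher after calcium-free KSW took 26.1% to 29.4% of the reads of each calcium-free T4 library and 20.01% to 24.3% of each cytochalasin D T4 library. The calcium-free medians at T0 to T3 were 24.9%, 21.7%, 22.8% and 23.8%, and the cytochalasin D medians 22.1%, 19.3%, 20.4% and 21.3%. In the streptomycin libraries the medians were 28.4%, 31.7%, 25.7% and 25.4%. Cytochalasin D had the lowest mean of the 3 treatments for 46, 54, 48 and 60 of the 70 genes at T0 to T3. Calcium-free KSW had the highest for 35, 33, 30 and 42 of them. As shares of the 70 genes these were 65.7% to 85.7% and 42.9% to 60%. Over all genes tested at T4 the shares were 26.7% to 30.9% and 31.4% to 32.2%. The choice of the genes again fixes these counts in part.

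**Figure D4:**
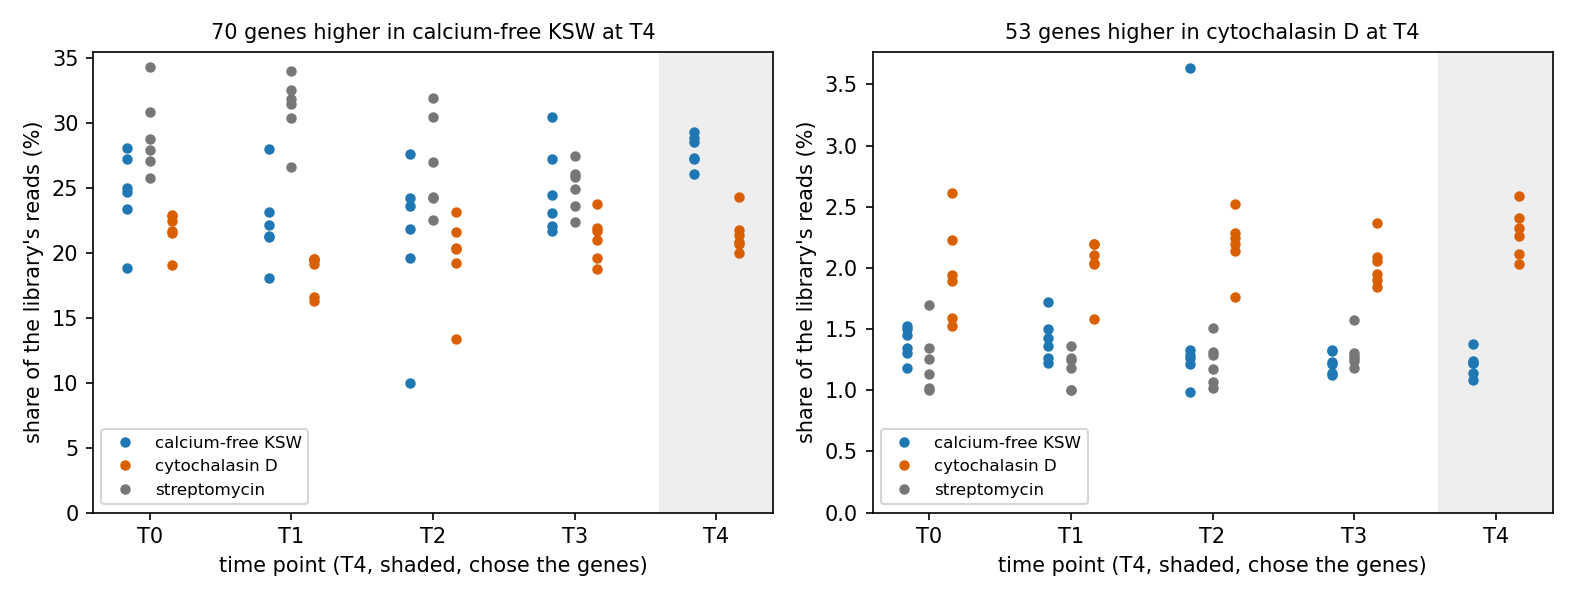
Share of each library's reads (%) taken by the 70 genes higher after calcium-free KSW at T4 (left) and the 53 genes higher after cytochalasin D at T4 (right), 1 point per library, by time point and treatment. On the right the streptomycin points (grey) lie with the calcium-free points (blue) at T0 to T3, and the calcium-free point at 3.64% is library T2 F.

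From T0 to T4 the 70 genes changed by a median of 0.40 on the log2 scale in the calcium-free libraries. There 54 of 70 were above T0, against 1605 of all 2818 genes tested at T4. In the cytochalasin D libraries the median change of the 70 genes was -0.04. The 53 genes changed by a median of -0.21 in the calcium-free libraries and 0.20 in the cytochalasin D libraries, and the medians of all genes tested were 0.08 and 0.07. These are medians of group means with no test of their own. The T4 libraries that chose the genes enter these changes, so their directions follow in part from that choice. Gene by gene, the question whether the T4 difference departed from the T0 difference was tested in 1 fit of the 60 libraries of both treatments, and 1 of 5243 genes passed (0.0191%), while 349 had a p under 0.05 before adjustment and DESeq2 called 2. Against the mean of the T0 to T3 differences, edgeR called 0 of 5243 genes (0%) and DESeq2 also 0, with 298 at a p under 0.05 before adjustment. For the 123 genes the precision of these tests was low: the median SE of the T4 minus T0 difference was 0.32 in the 70 genes and 0.39 in the 53 genes, beside median sizes of 0.43 and -0.34. A T4 difference that arose after T0 could therefore be missed for most of them.

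NVE2343 was the gene that passed, and it changed sign. At T4 its level was 623, 704, 722, 722, 531 and 741 CPM in calcium-free A to F, and 1104, 1149.8, 1278, 1386, 1218 and 1372 CPM in cytochalasin D A to F. The groups were far apart, with no calcium-free library above 741 CPM and no cytochalasin D library below 1104 CPM. The T4 difference was -0.90 ± 0.11 (log2, SE; edgeR adjusted p = 4.72e-05). At T0 the order was the reverse, with 414 ± 134 CPM after calcium-free KSW and 189 ± 19.1 CPM after cytochalasin D (SD, n = 6), a log2 difference of 1.12 ± 0.19 (SE; edgeR adjusted p = 0.00183).

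Between these points the difference in NVE2343 went through 0.42 ± 0.12 at T1 (log2, SE; edgeR adjusted p = 0.056) and -0.28 ± 0.31 at T2 (0.873) to -1.07 ± 0.14 at T3 (7.19e-05). In the cytochalasin D libraries the mean was higher at each successive point, at 458 ± 56.7, 900.1 ± 303, 1016 ± 195.9 and 1251 ± 115 CPM at T1 to T4 (SD, n = 6). In the calcium-free libraries it was 601 ± 72.6, 748 ± 474, 487 ± 153.5 and 674 ± 81.5 CPM (SD, n = 6), and the spread at T2 comes with a level of 1693 CPM in a single library. With streptomycin the means at T0 to T3 were 251 ± 88.4, 444 ± 75.2, 849 ± 278 and 753 ± 121.8 CPM (SD, n = 6). The T4 minus T0 difference was -1.97 ± 0.29 (log2, SE; edgeR adjusted p = 3.35e-05), and it stayed called in all 67 alternatives run. With letter pairs summed it was -1.92 with an adjusted p of 0.0334. The test against the mean of T0 to T3 did not pass (-0.91 ± 0.22, SE; edgeR adjusted p = 0.224).

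**Figure D5:**
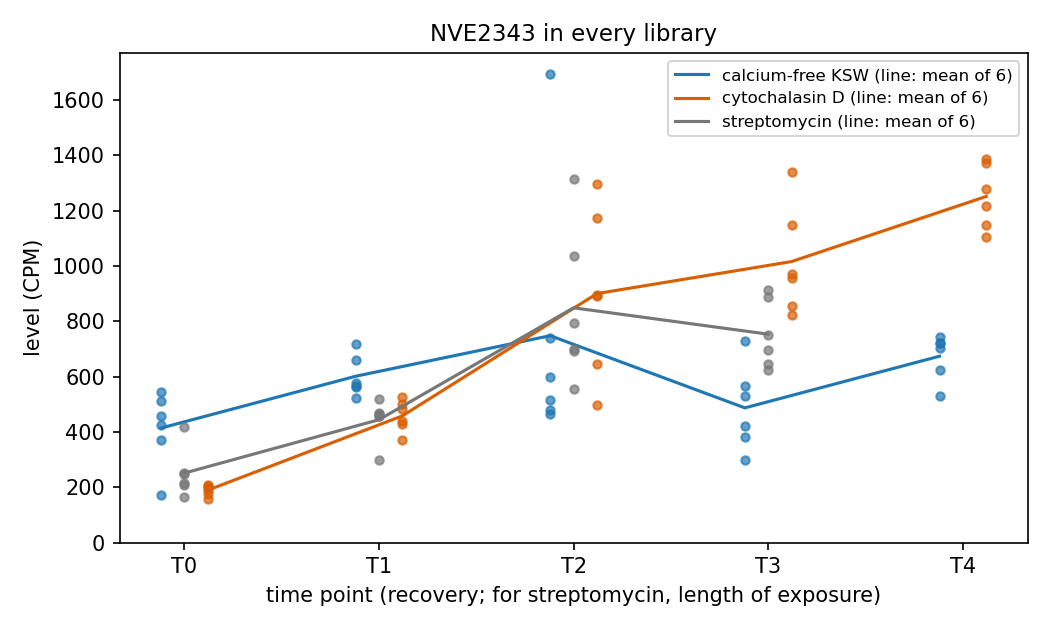
Level of NVE2343 in every library (CPM) by time point, with lines through the means of 6 libraries. The cytochalasin D points (orange) lie below all but 1 of the calcium-free points (blue) at T0 and above all of them at T3, where the lowest cytochalasin D library had 824 CPM, and at T4, where the lowest had 1104 CPM.

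On principal components of the 1000 most variable genes, the first component (25% of the variance) set letters B and E of the calcium-free group, at -18.05 and -14.89, apart from the other libraries, and cytochalasin D B, at -8.41, came next. The second component (18.1%) ran from -9.78 to 0.77 in the calcium-free libraries and from -1.31 to 14.05 in the cytochalasin D libraries. Taken alone, letters A to C gave 41 called genes of 3041 tested and letters D to F gave 36 of 2827. Of the 2642 genes tested in both, 8 were called in both. Of the 31 genes called in A to C that were also tested in D to F, 26 had the same sign there. Of the 31 called in D to F and tested in A to C, 26 also had the same sign. Among all genes tested in both the share was 63.1%.

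Whether the treatment difference was the same in letters A to C as in letters D to F was tested as an interaction, and 2 of 2818 genes passed (0.071%; 1 with DESeq2). NVE12172 was at 327, 175.03, 537, 102, 159.5 and 199.6 CPM in calcium-free A to F and at 114.1, 197, 74.7, 446, 1699 and 685 CPM in cytochalasin D A to F. In the cytochalasin D group the D to F libraries were all above the A to C libraries, while calcium-free D to F were each below the letter they pair with. The treatment difference was lower in D to F than in A to C (-4.09 ± 0.53 on the log2 scale, SE; edgeR adjusted p = 0.000128). At T0 to T3, which did not choose the gene, the D, E or F library of cytochalasin D was above its A, B or C partner in 12 of 12 cases, against 9 of 12 after calcium-free KSW and 5 of 12 with streptomycin. The gene itself was not called at T4 (-0.95 ± 0.50, SE; edgeR adjusted p = 0.306). Earlier it was called higher after cytochalasin D at T0 (-1.76; edgeR adjusted p = 0.0339), T1 (-2.93; 0.0152) and T3 (-2.18; 0.00232), and not at T2 (-0.96; 0.78).

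At T4 NVE16297 had the same form at lower counts. Calcium-free A to F held 80.7, 46.4, 73.3, 27.8, 29.7 and 45.6 CPM, and cytochalasin D A to F held 48.9, 28.6, 25.8, 76.5, 75.5 and 139.8 CPM. The interaction was -2.52 ± 0.50 on the log2 scale (SE; edgeR adjusted p = 0.04). It missed the threshold in 11 of 17 alternatives, among them the fit without the block (adjusted p = 0.151) and DESeq2 (0.346). At T0 to T3 the D, E or F library of cytochalasin D was above its partner in 11 of 12 cases. After calcium-free KSW and with streptomycin this held in 9 of 12 cases each. For treatment NVE16297 was called higher after cytochalasin D at T0 (-2.18; edgeR adjusted p = 0.00183). It was not called at T1 (-1.65; 0.0551), T2 (-0.27; 0.877), T3 (-0.85; 0.186) or T4 (-0.36; 0.619).

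An interaction of treatment and letter pair passed in 4 of 2818 genes (0.142%; 4 with DESeq2), and letters A and D stood out at T4 in all 4. NVE18269 was at 103.8 and 64.8 CPM in calcium-free A and D, and at 354, 382, 300.1 and 211 CPM in calcium-free B, E, C and F. In cytochalasin D the order was turned, with 485 and 353 CPM in A and D and 171.5, 113.3, 106.2 and 110.9 CPM in B, E, C and F (edgeR adjusted p = 1.7e-05 over the 3 pairs). The A and D libraries were thus the lowest of the calcium-free group and the highest of the cytochalasin D group at T4. This order did not hold at all points. At T0 cytochalasin D A and D were the lowest of their group for NVE18269 (170 and 97.6 CPM). At T3 letters B and E were the highest in both treatments (315 and 399 CPM after calcium-free KSW, 946 and 693 CPM after cytochalasin D). NVE2190, NVE7833 and NVE18268 passed with adjusted p-values of 0.00662, 0.0111 and 0.0273 (edgeR), and these calls ended in 3, 4 and 5 of 17 alternatives, with adjusted p-values of up to 0.191, 0.619 and 0.667. For NVE2190 calcium-free A and D had 3 reads each, or 11.5 and 13.9 CPM, against 45.6 to 92.9 CPM in the other calcium-free libraries, and in cytochalasin D they had 102 and 123 CPM against 16.9 to 45.9 CPM. NVE7833 and NVE18268 had the same order, with 1 exception, calcium-free F below calcium-free A for NVE7833 (159.7 and 188 CPM). None of the 4 genes was called for treatment at T4, and the log2 differences lay between -0.29 and 0.23 (edgeR adjusted p = 0.604 to 0.975). Earlier, NVE18269 was called higher after cytochalasin D at T3 (-1.37; edgeR adjusted p = 7.19e-05). NVE18268 was called in that direction at T1 (-1.95; 0.0307) and T3 (-0.90; 0.0172). NVE2190 and NVE7833 were not called at any earlier point where they were tested.

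Genes read in 1 treatment alone were rare at T4. With 15 or more reads summed over a group as the condition, 2 genes had reads in cytochalasin D and none in calcium-free KSW, and 1 gene the reverse. The group totals were 1705594 counts for calcium-free KSW and 1979665 for cytochalasin D, and no such gene had over 33 reads in all, so presence in 1 treatment alone was not detectable for genes of low level at this depth.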

How the data were processed

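The libraries were made from total RNA of oral disc and tentacles by a method that the labels cite from a paper and that is known in this field as tag-based RNA-seq. The authors deposited 1 table of whole-number read counts per gene model, 23510 rows and 84 columns, which were not normalized. Bowtie2 is named in the submitters' processing notes; the sources used here give neither its settings nor the genome build or the counting rule. Columns were matched to samples by title, groups were taken from the labels, and every sample column was used.

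Counts were analysed in R 4.3.3 with edgeR 4.0.16: genes of low count were removed by filterByExpr with the group as factor, libraries were scaled by the trimmed mean of M values, and glmQLFit and glmQLFTest were run, with Benjamini-Hochberg adjustment over all genes tested and a threshold of 0.05. Each time point was fitted alone on 12 libraries with the 3 letter pairs as a block (8 residual degrees of freedom at T4). The T4 minus T0 and T4 minus mean T0 to T3 contrasts came from 1 fit of 60 libraries with time point by letter pair as a block (40 residual degrees of freedom). Deviations from the group means of same-lettered libraries of the treatments correlated at over 0.1 for 6 of 6 letters at T0 (0.224 to 0.489), T1 (0.143 to 0.407) and T3 (0.254 to 0.412), so there the letters pair the libraries. Interactions of treatment with A to C against D to F, and with letter pair, used the 12 T4 libraries. SEs were taken from the log2 fold change and its F value. CPM printed per library are scaled over all 84 libraries, on 5132 genes. Sign and overlap counts used log2 CPM with a prior count of 2. The same steps were also run on simulated data. There DESeq2 exceeded the first limit set on false calls for the letter-pair interaction. After that was seen, the limit was changed to false calls pooled per tool, which both tools met.

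The genes named are, in each direction, the 2 with the largest fold change among called genes above the median abundance with the same sign in 6 of 6 letters (123 called genes, 100 of them above the median, 77 with that sign), plus every gene that passed a contrast of differences. The letter pairing, the rule and the comparisons were chosen with earlier results of these data known. Alternatives were the block left out, each letter as block, letter pairs summed, DESeq2 1.42.0, its size factors, no low-count filter, at least 10 reads in 6 libraries, 1 fit of all 84 libraries, letters A to C and D to F alone, and each library left out. At 217221 to 409888 counts per T4 library, counting error is large for genes of low level.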

Additional observations from a re-analysis of the deposited data

Results flagged for a closer look

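Of 32 groups of 6 T4 values examined for a library far from the rest, 2 had one, where chance alone gives about 1 in 20. Both concern NVE17825: calcium-free D at 1351 CPM, against 64.3 to 300.1 CPM in the other 5 libraries, and cytochalasin D B at 5498 CPM, against 409 to 2177 CPM.

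Differences that were themselves different between sets of libraries were found for 7 genes. For NVE2343 the T4 difference departed from the T0 difference by -1.97 (log2, calcium-free KSW minus cytochalasin D). For NVE12172 and NVE16297 the T4 difference in letters D to F departed from that in letters A to C by -4.09 and -2.52. For NVE18269, NVE2190, NVE7833 and NVE18268 the T4 difference was not the same in the 3 letter pairs (edgeR adjusted p = 1.7e-05, 0.00662, 0.0111 and 0.0273).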

How the results depend on the processing

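The T4 count of 123 moved by over 1.5 times without the replicate block (79), in 1 fit of all 84 libraries (37) and with letters A to C or D to F alone (41 and 36). With each letter as replicate block it was 116. Leaving out 1 library gave 64 to 199, past 1.5 times for calcium-free A (80) and B (64) and cytochalasin D C (199) and F (70). The share of T4 calls higher after calcium-free KSW, 56.9%, was 44.7% with letter pairs summed, 45.9% in the fit of all 84 libraries, 33.3% with D to F alone and 32.1% with no low-count filter. It was 48.1% without calcium-free F and 50% without cytochalasin D E.

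For T0 to T3 the calls are given as a share of the 23510 gene models. At T0 the 0.43% called became 0.119% without the replicate block, 1.05% with each letter as block, 1.28% with pairs summed and 0.936% with no filter, and 0.149% to 0.583% with 1 library left out. At T1 the 0.578% became 0.204%, 0.876%, 1.23% and 1.31% in the same order, and 0.162% to 1.05%. At T2 the 0% became 0.00425% with each letter as block, 0.0681% with pairs summed, 0.034% with DESeq2, 0.208% with no filter and 0.744% in the fit of all 84 libraries, and 0% to 0.923%. At T3 the 0.804% became 0.472% without the block, 1.76% with pairs summed and 0.319% in the fit of all 84 libraries, and 0.379% to 0.97%. The T4 against T0 count of 1 became 2 with each letter as block, with pairs summed and with DESeq2, 15 with no filter, and 1 to 4. The count against the mean of T0 to T3 became 11 with no filter, and 0 to 2. The A to C against D to F count of 2 became 1 without the block and with DESeq2, 25 with no filter, and 1 to 8. The letter-pair count of 4 became 20 with no filter, and 1 to 9. The cause of these moves was not tested. No value of a named gene that was run under the alternatives reversed in sign. The T4 treatment differences of the genes named only for an interaction were not run under them. Nor were the differences of single genes at T0 to T3.

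Correlations of same-letter deviations between the treatments at T4 were -0.0726 to 0.293, with 4 of 6 over 0.1 and 2 of 6 libraries matching their own letter best, so at T4 the letters are not shown to pair the libraries; at T2, 5 of 6 were over 0.1. The p-values treat A and D, B and E, and C and F as separate libraries and may be too small if a pair shares animals. The same-sign shares of the T4 genes at T0 to T3 lay between 80.2% and 100% over all alternatives run.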
